A study of Homo sapiens with 18 samples.

Results

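Chromatin accessibility at 10 genes of interleukin-1 signalling was examined in Ccd18-Co, an established line of human colon fibroblasts. The genes were the ligands IL1A, IL1B and IL33, the receptor antagonist IL1RN, the receptors IL1R1 and IL1RL1, the accessory receptor IL1RAP, the decoy receptor IL1R2, and the kinases IRAK2 and IRAK3. All peaks that overlapped the body of one of these genes or the 10 kb upstream of it were taken, which gave 111 of the 334857 peaks in the deposited table. All 111 passed the filter on low abundance, as did every other peak of the table, so the filter did not select among them. They numbered 3 at IL1A, 3 at IL1B, 10 at IL33, 9 at IL1RN, 27 at IL1R1, 13 at IL1RAP, 9 at IL1RL1, 11 at IL1R2, 20 at IRAK2 and 6 at IRAK3. No peak belonged to a pair of these genes, but all 9 IL1RL1 peaks also lay in the locus of its neighbour IL18R1, and 2 IRAK2 peaks in that of TATDN2, so accessibility there cannot be assigned to either gene.

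Bulk ATAC-seq, in which a transposase cuts open chromatin, was available for 18 libraries in 3 groups of 6. The first group was unstimulated. Both others received 3 pulses (72 h of exposure and 96 h of recovery) with TNF, OSM and IL-17A at 10 ng/ml each and IL-1β at 0.1 ng/ml, then 1 week of rest. They were next given DMSO, the solvent, or 250 nM belinostat, an inhibitor of histone deacetylases, for 5 days, and both were harvested 2 weeks later. The labels give no solvent, treatment days or harvest time for the unstimulated group. DMSO against unstimulated is called the cytokine contrast, belinostat against DMSO the belinostat contrast and belinostat against unstimulated the residual contrast. In the cytokine and residual contrasts, cytokines cannot be told apart from solvent, handling or time in culture by the labels. The cytokine and belinostat contrasts share the DMSO libraries, and the cytokine and residual contrasts the unstimulated ones. The belinostat and residual contrasts share the belinostat libraries. All libraries came from the same cell line, and nothing in the sources says that the 6 of a group were independent cultures, so p-values measure the spread between these libraries, which may be technical.

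IL-1α and IL-1β bind IL1R1, which pairs with IL1RAP to recruit MyD88 and the IRAK kinases and so activates NF-κB and AP-1. IL1RN blocks that receptor, IL1R2 binds the ligand without signalling, and IRAK3 restrains the kinase complex, whereas IRAK2 sustains it. IL-33 signals through IL1RL1 and the same accessory chain, and fibroblasts of the gut wall are known both to respond to IL-1 and to make IL-33.

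Of the 10 genes, 6 lie in 2 stretches of chromosome 2 (hg38). IL1R2 (chr2:101991960-102028544), IL1R1 (chr2:102064544-102179874) and IL1RL1 (chr2:102311502-102352037) follow each other on the forward strand. IL1A (chr2:112773925-112784493) and IL1B (chr2:112829751-112836816), both on the reverse strand, lie before IL1RN (chr2:113099315-113134016). IL33 is at chr9:6215786-6257983, IL1RAP at chr3:190514051-190659750, IRAK2 at chr3:10164919-10243745 and IRAK3 at chr12:66189195-66254622, all on the forward strand. The transcript that is taken here as canonical for IL1R1 starts at position 102142746 of chromosome 2, inside the gene, and longer annotated transcripts begin upstream, near a peak 78.1 kb away. Distances below are from the start of the canonical transcript of each gene to the centre of the peak.

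The sequences that follow are the central 300 bases, or the whole peak where it was narrower, of 5 peaks of the family on which the results turn. They are given 5′ to 3′ on the forward strand of hg38. Capitals mark matches, on either strand, to any of 6 consensus words: AP-1 (TGANTCA), NF-κB (GGGNNTTTC), C/EBP (TTGCNNAA), RUNX (TGTGGT), TEAD (GGAATG) and an E-box (CAGCTG). The first peak, in an intron of the longer IL1R1 transcripts 42.0 kb upstream (chr2:102100331-102101151), had the smallest belinostat p of the family. The second, 15.0 kb upstream of the same start (chr2:102127637-102127910), was also closed in the belinostat contrast and contains a repeat of the letters tg. The next pair are in introns of IRAK2, 9.2 kb (chr3:10173710-10174434) and 15.8 kb (chr3:10180239-10181167) downstream of its start. The last is the strongest IL33 peak, in an intron 2.4 kb downstream of the start (chr9:6217811-6218534).
IL1R1, 42.0 kb upstream: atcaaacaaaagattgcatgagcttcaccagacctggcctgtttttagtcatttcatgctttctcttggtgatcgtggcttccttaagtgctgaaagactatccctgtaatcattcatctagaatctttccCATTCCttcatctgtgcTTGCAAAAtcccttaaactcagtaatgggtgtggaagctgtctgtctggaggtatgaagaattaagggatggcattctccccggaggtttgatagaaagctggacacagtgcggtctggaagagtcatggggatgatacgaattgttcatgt
IL1R1, 15.0 kb upstream: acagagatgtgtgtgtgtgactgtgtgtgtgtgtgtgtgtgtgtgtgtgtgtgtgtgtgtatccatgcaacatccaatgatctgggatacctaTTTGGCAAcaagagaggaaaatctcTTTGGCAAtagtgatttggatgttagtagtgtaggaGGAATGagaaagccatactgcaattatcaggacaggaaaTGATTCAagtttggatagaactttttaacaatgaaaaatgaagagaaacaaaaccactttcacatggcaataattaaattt
IRAK2, 9.2 kb downstream: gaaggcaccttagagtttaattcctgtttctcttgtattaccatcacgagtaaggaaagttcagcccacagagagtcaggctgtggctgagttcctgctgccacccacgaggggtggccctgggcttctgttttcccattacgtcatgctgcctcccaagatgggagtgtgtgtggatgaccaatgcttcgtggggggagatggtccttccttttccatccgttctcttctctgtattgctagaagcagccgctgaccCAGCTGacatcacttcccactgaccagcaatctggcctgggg
IRAK2, 15.8 kb downstream: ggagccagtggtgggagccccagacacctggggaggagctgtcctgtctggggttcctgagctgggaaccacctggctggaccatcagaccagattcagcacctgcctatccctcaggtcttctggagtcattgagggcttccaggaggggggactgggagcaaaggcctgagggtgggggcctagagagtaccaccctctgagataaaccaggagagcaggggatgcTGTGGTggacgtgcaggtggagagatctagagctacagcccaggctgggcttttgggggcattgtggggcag
IL33, 2.4 kb downstream: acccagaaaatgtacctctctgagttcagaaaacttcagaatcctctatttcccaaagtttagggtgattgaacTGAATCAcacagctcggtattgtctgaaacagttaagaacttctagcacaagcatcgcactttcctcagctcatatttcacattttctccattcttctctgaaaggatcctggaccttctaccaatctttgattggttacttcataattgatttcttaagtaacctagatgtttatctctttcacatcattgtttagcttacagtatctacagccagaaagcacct

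The first IL1R1 sequence holds a TEAD and a C/EBP word, and the second holds an AP-1 word, a TEAD word and 2 C/EBP words. The IRAK2 sequences hold an E-box and a RUNX word, respectively, and the IL33 sequence an AP-1 word. In 300-base windows around the centres, the AP-1 word stood in 28.8% of the 111 member peaks and in 17.8% of all peaks of the table. The NF-κB word stood in 8.1% of member peaks against 4.2% of all, and the C/EBP word in 20.7% against 14.1%. The RUNX (25.2% and 22.6%), TEAD (26.1% and 21.3%) and E-box (21.6% and 23.2%) words stood in these shares of member and of all peaks, respectively. A match describes these letters only. Member peaks had a median width of 318 bp and a GC content of 45.8%, against 275 bp and 50.1% over the table, and 16.2% of them lay within 3 kb of an annotated start, against 18.2%.

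Depth was modest for single peaks. Unstimulated libraries held 7077321 to 11352032 counts in peaks, DMSO libraries 6488975 to 8066642 and belinostat libraries 4661678 to 6370845. The 111 member peaks took 0.0403% ± 0.000997 of the counts without stimulation, 0.0409% ± 0.00131 with DMSO and 0.0392% ± 0.0016 with belinostat (SD, n = 6 each). The 10000 strongest peaks took 35.4% to 39.0% of the counts of unstimulated libraries, 31.8% to 35.2% of DMSO and 28.4% to 34.5% of belinostat libraries, so that strong peaks tended to read lower and weak ones higher after stimulation. The main cytokine and belinostat fold changes of peaks are therefore set beside the median of all peaks of like abundance (20 bins) or the value with loess offsets, which remove that trend within each library. The part of this trend in the results was not tested. All 10 fibroblast markers had a peak over their start, with a summed level of 210.0 to 248 CPM in unstimulated, 152 to 214 in DMSO and 138 to 200.0 in belinostat libraries, and the part of this in the results was not tested. Summed levels were 16.3 to 22.5 CPM for 8 epithelial markers and 6.52 to 10.0 CPM for the 3 of 8 leukocyte markers that had a peak within 3 kb of the start, PTPRC and CD79A not among them. They were 15.2 to 19.9 CPM for the 7 of 8 endothelial markers with such a peak. In these bulk libraries, fewer cells with an open site and less opening per cell cannot be told apart.

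In unstimulated cells IL1RAP and IL1R1, the chains of the IL-1 receptor, were the most accessible members, and the ligands and the IL-33 receptor the least. Levels are mean log2 CPM (counts scaled to the size of the library) per kb of peak, which allows comparison between genes. IL1RAP stood at 3.96 ± 0.14 and IL1R1 at 3.81 ± 0.10 (SD, n = 6 each), and their ranges over libraries overlapped. A gap without overlap separated them from IL1RN (3.01 ± 0.10), IRAK2 (2.99 ± 0.10) and IRAK3 (2.75 ± 0.27), neighbours whose ranges overlapped. IL1R2 followed, overlapping IRAK3, at 2.22 ± 0.11, and IL1B (1.78 ± 0.36), IL1RL1 (1.75 ± 0.13), IL33 (1.70 ± 0.15) and IL1A (1.59 ± 0.27) overlapped from each to the next.

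**Figure D1:**
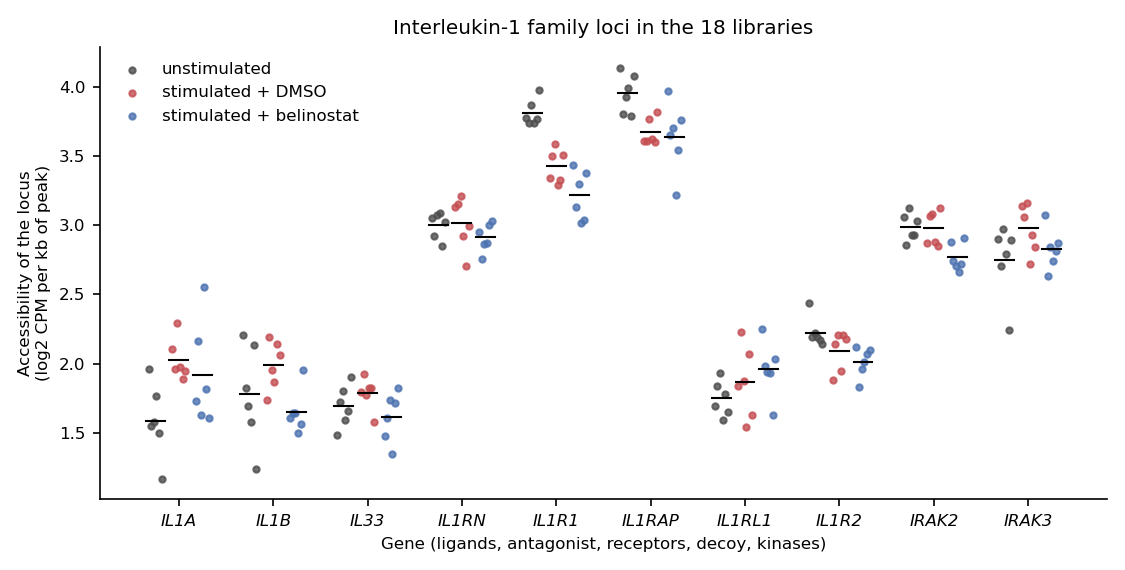
Accessibility of the 10 loci as log2 CPM per kb of peak (vertical axis), with a point for each library and a black line for the mean of the 6 libraries of a group. IL1R1 and IL1RAP are highest, IL1A, IL1B, IL33 and IL1RL1 lowest in unstimulated libraries, and the unstimulated IL1R1 libraries lie above all DMSO and belinostat libraries.

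The peaks at the starts also had IL1RAP and IL1R1 on top. Among the start peaks of 17980 protein-coding genes, ranked on log2 CPM per kb in unstimulated cells, the IL1RAP start peak was at percentile 91.8, that of IL1R1 at 62.4 and that of IRAK2 at 45.5. The start peaks of IRAK3 (18.6), IL1B (17.6) and IL1A (12.0) ranked low. IL1RN, IL1RL1, IL1R2 and IL33 had no peak over the start of the canonical transcript, and the nearest ones, within 3 kb, were at percentiles 22.4, 17.1, 15.9 and 10.8.

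In the cytokine contrast, 8 member peaks opened and 14 closed. These are 7.21% and 12.6% of the 111, beside 9.51% opened and 9.73% closed over all peaks. The median log2 fold change of the members was -0.01, and that of all peaks 0.13. Of the 50 members averaging at least 1 log2 CPM, 3 opened and 13 closed, beside 2.72% and 31.9% of all such peaks. Of the 61 weaker members, 5 opened and 1 closed, beside 12.2% and 0.801% of all weaker peaks. The calls divided by gene: 9 of the closed peaks were at IL1R1, 2 at IL1RAP, 2 at IRAK2 and 1 at IL33, while 5 of the opened ones were at IRAK2 and 1 each at IL33, IL1RN and IRAK3. IL1A, IL1B, IL1RL1 and IL1R2 had no called peak. With loess offsets, 5 member peaks opened and 1 closed (1.97% and 1.86% of all peaks), and 3 opened and 1 closed peak were called in both fits. The opened ones in both fits were the IRAK2 peaks 9.2 and 15.8 kb downstream and the IRAK3 start peak, and the closed one a weak IL1R1 peak 30.7 kb upstream. Without unstimulated replicate 1 or 6, 1 member peak opened, and 2 to 5 did without unstimulated replicates 3 or 5 or DMSO replicates 1, 2, 4, 5 or 6. Without unstimulated replicate 6 or DMSO replicate 4, 7 closed, and 9 without unstimulated replicate 2 or 3.

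**Figure D2:**
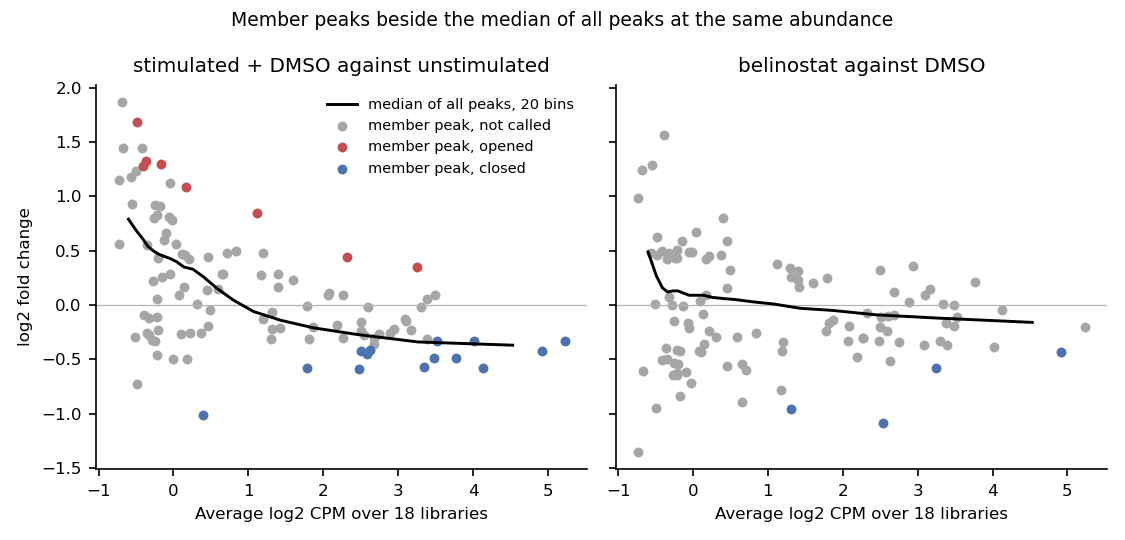
Log2 fold change (vertical axis) of the 111 member peaks against their average log2 CPM (horizontal axis) for the cytokine contrast (left) and the belinostat contrast (right), with called peaks coloured and the median of all peaks in 20 abundance bins as a line. The line falls from 0.79 in the weakest to -0.37 in the strongest bin of the cytokine contrast and from 0.49 to -0.16 in the belinostat contrast, and the 4 peaks closed in the belinostat contrast lie below it.

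Among the ligands, the start peaks of IL1B and IL1A overlapped between all groups and passed no test. The IL1B start peak (chr2:112836359-112837192), over an untranslated part of an exon, ran from 1.43 to 2.16 with a median of 1.76 log2 CPM in unstimulated, from 1.44 to 2.08 (median 1.92) in DMSO and from 0.89 to 2.05 (median 1.64) in belinostat libraries. The groups overlapped throughout. Its log2 fold change was -0.01 ± 0.19 (SE) in the cytokine contrast (adjusted p = 0.989, loess 0.16 with adjusted p = 0.661) and -0.24 ± 0.20 in the belinostat contrast (adjusted p = 0.577, loess -0.19 with adjusted p = 0.669). The IL1A start peak held 0 to 13 counts per library, and its cytokine change of 0.17 ± 0.37 (adjusted p = 0.772) was not detectable at this depth. Another IL1A peak, with an average under 1 log2 CPM, opened in the residual contrast by 1.66, where 22.1% of all such weak peaks opened. That call was lost without unstimulated replicate 4 or belinostat replicate 4 (adjusted p 0.0508 and 0.0647).

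IL33, the alarmin, had a single peak above an average of 1 log2 CPM, the intron peak printed above. It held 1.64 to 2.57 (median 1.96) log2 CPM in unstimulated, 1.21 to 1.93 (median 1.45) in DMSO and 1.19 to 2.12 (median 1.78) in belinostat libraries. The DMSO libraries sat low but overlapped the others. The peak closed in the cytokine contrast by -0.58 ± 0.19 (adjusted p = 0.0245), where the median of peaks of like abundance was -0.21, and with loess offsets the change was -0.41 (adjusted p = 0.201). The call was lost without unstimulated replicates 2 or 6 or DMSO replicates 2 or 4 (adjusted p 0.0552 to 0.121). After belinostat it changed by 0.25 ± 0.21 (adjusted p = 0.571). A faint intron peak 18.7 kb downstream, with 0 to 7 counts per library, opened by 1.33 ± 0.49 (adjusted p = 0.0409), beside a median of 0.54 for like peaks and a loess value of 0.86 (adjusted p = 0.307), and was called in 6 of the 12 fits without a library.

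At IL1RN, the antagonist, the strongest peak lay 12.5 kb upstream of the canonical start, in an intron of the longer transcripts (chr2:113114684-113115429). It ran from 3.25 to 3.52 (median 3.45), from 3.17 to 3.83 (median 3.44) and from 3.19 to 3.8 (median 3.45) log2 CPM in the unstimulated, DMSO and belinostat libraries, and the groups overlapped with near-equal medians. Its cytokine change was 0.09 ± 0.13 (adjusted p = 0.649), where peaks of like abundance had a median of -0.34, and with loess offsets it opened by 0.42 (adjusted p = 0.00702). This peak was singled out after its values were seen. Of the 9 IL1RN peaks, 9 lay above the median of peaks of like abundance in the cytokine contrast. The IL1RN peak that was called opened there was faint (33.9 kb upstream, 1.69 ± 0.63, adjusted p = 0.0432). Like peaks had a median of 0.68, the loess value was 1.19 (adjusted p = 0.279), and the call held in 5 of the 12 fits without a library.

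IL1R1, the signalling receptor, held 9 of the 14 closed member peaks. Of its 27 peaks, 23 had a cytokine fold change below 0. Of the 27, 20 averaged at least 1 log2 CPM, a range in which 31.9% of all peaks and 13 of the 50 members closed, and 8 exceeded the median for their abundance. The start peak (chr2:102142277-102143282), over an untranslated part of an exon, closed from 4.38 to 4.62 (median 4.48) log2 CPM in unstimulated libraries to 3.76 to 4.14 (median 3.89) in DMSO libraries. The belinostat libraries held 3.50 to 4.26 (median 3.88). All unstimulated libraries lay above all others. The log2 fold change was -0.58 ± 0.12 (adjusted p = 0.000197), beside a median of -0.37 for peaks of like abundance, and -0.23 with loess offsets (adjusted p = 0.0723). The belinostat contrast gave -0.05 ± 0.12 (adjusted p = 0.882).

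The peak over the upstream start of IL1R1, 78.1 kb away (chr2:102064191-102065013), was the strongest of the locus and stepped down in both contrasts. It held 5.06 to 5.52 (median 5.25) log2 CPM in unstimulated, 4.68 to 5.02 (median 4.90) in DMSO and 4.26 to 4.73 (median 4.39) in belinostat libraries. Unstimulated and DMSO libraries did not overlap, and DMSO and belinostat libraries overlapped slightly. It closed by -0.42 ± 0.11 in the cytokine contrast (adjusted p = 0.00348), close to the median of -0.37 for like peaks, with a loess value of -0.03 (adjusted p = 0.851). With belinostat it closed by -0.43 ± 0.11 (adjusted p = 0.0171), beside -0.16 for like peaks and -0.23 with loess offsets (adjusted p = 0.0488). Leaving out DMSO replicates 2, 3 or 6 or belinostat replicates 2 or 5 took the belinostat call away (adjusted p 0.0595 to 0.0691), as did TMM over the weaker peaks (adjusted p = 0.199).

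**Figure D3:**
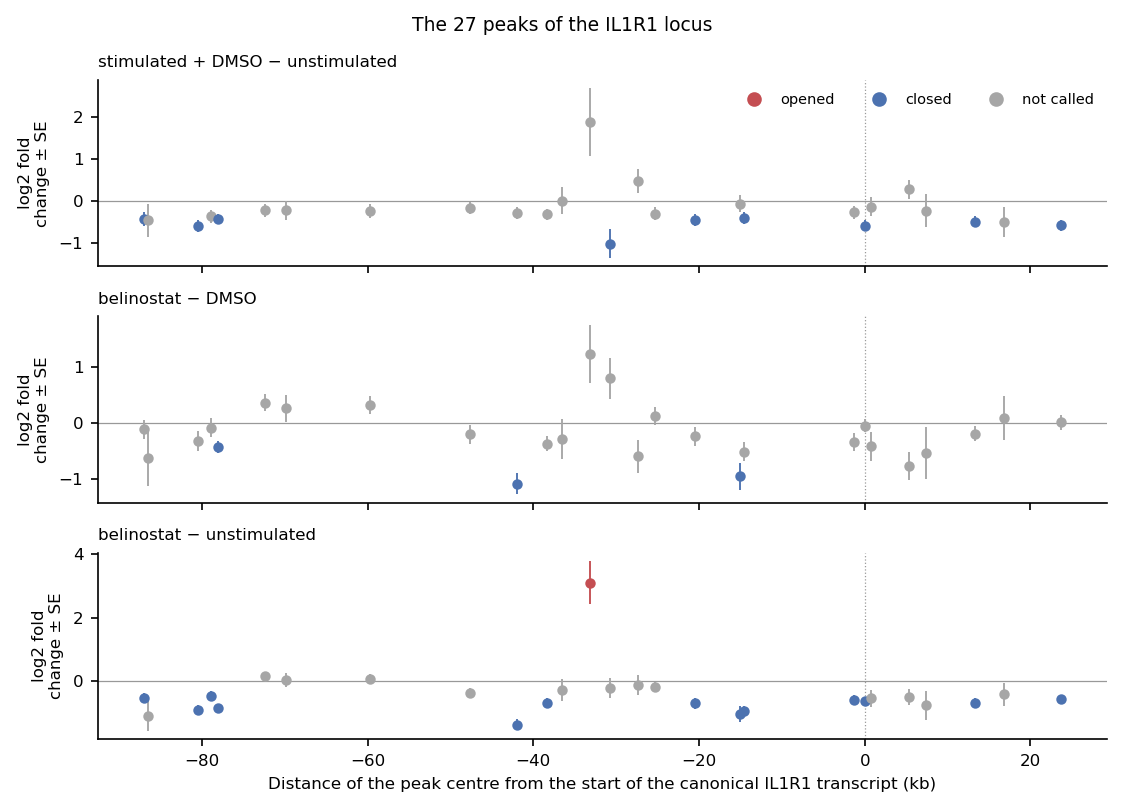
Log2 fold change with its SE (vertical axes) of the 27 IL1R1 peaks by the distance of the peak centre from the canonical start in kb (horizontal axis), for the cytokine (top), belinostat (middle) and residual (bottom) contrasts. Blue peaks are closed and spread over the locus in the cytokine contrast, while in the belinostat contrast they are the 3 peaks 78.1, 42.0 and 15.0 kb upstream.

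In the belinostat contrast, 4 member peaks closed and 0 opened, or 3.6% and 0.0% of the 111, beside 1.75% closed and 0.607% opened over all peaks. All 4 were among the 50 members with an average of at least 1 log2 CPM, and of all such peaks 5.8% closed, against 0.127% of the weaker ones. At an unadjusted p under 0.05, 16 members had lower and 5 higher levels by edgeR. The share of all peaks at that p was not counted. DESeq2 also called 4 closed and 0 opened, beside 5729 closed and 1081 opened of the 334857 peaks. The median log2 fold change was -0.15 for the members and 0.01 for all peaks. Of the 4 closed peaks, 3 were at IL1R1 and 1 at IRAK2, and all 4 were also called with loess offsets. With these offsets 0.946% of all peaks opened and 1.51% closed. That fit in addition called 2 opened members. They were an IL1R1 peak 72.4 kb upstream, named after its value was seen (0.47, adjusted p = 0.0263), and an IL1RAP intron peak 19.8 kb downstream (0.35, adjusted p = 0.0404). Without DMSO replicate 6, the first fit called 2 closed and 1 opened, and without belinostat replicate 1, 1 opened.

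The IL1R1 peak 42.0 kb upstream showed the largest belinostat difference of the 4. It ran from 2.53 to 3.29 (median 2.96) log2 CPM in unstimulated, from 2.35 to 3.02 (median 2.62) in DMSO and from 0.86 to 2.05 (median 1.71) in belinostat libraries. Every belinostat library lay below every library of the other groups, while unstimulated and DMSO libraries overlapped. The peak closed by -1.09 ± 0.19 in the belinostat contrast (adjusted p = 1.27e-05), where peaks of like abundance had a median of -0.09, and by -0.99 with loess offsets (adjusted p = 4.84e-05). It was called in all 8 other fits and in all 12 fits without a DMSO or belinostat library, with values from -1.22 to -0.94. The cytokine contrast gave -0.28 ± 0.15 (adjusted p = 0.169), at the median of like peaks (-0.27), and the residual contrast -1.37 ± 0.18 (adjusted p = 2.57e-10). Counts per library ranged from 10 to 64.

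The IL1R1 peak 15.0 kb upstream, which the rule for named peaks did not include and which was added after its values were seen, had a similar profile at a lower level. It held 1.39 to 1.86 (median 1.5) log2 CPM in unstimulated, 1.12 to 1.70 (median 1.5) in DMSO and 0.19 to 0.96 (median 0.69) in belinostat libraries, and the belinostat libraries again lay below all others. It closed by -0.96 ± 0.25 in the belinostat contrast (adjusted p = 0.0129, loess -0.95 with adjusted p = 0.0148) and changed by -0.06 ± 0.20 in the cytokine contrast (adjusted p = 0.856). Without belinostat replicate 4 the adjusted p was 0.0573. It rests on 5 to 28 counts per library.

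The adjacent IL1R1 peak 14.6 kb upstream (chr2:102127969-102128364) was lower in each group in turn, from 2.81 to 3.13 (median 3.07) in unstimulated to 2.43 to 2.76 (median 2.65) in DMSO and 1.91 to 2.32 (median 2.10) log2 CPM in belinostat libraries. None of the groups overlapped. It closed by -0.41 ± 0.14 in the cytokine contrast (adjusted p = 0.0343), a call lost in 6 of the 12 fits without a library (adjusted p up to 0.0829) and with loess offsets (-0.13, adjusted p = 0.586). In the belinostat contrast it changed by -0.52 ± 0.17 (adjusted p = 0.0751), and in the residual contrast it closed by -0.93 ± 0.16 (adjusted p = 1.65e-06). An NF-κB word stood in its central 300 bases, as in 3 of the 27 IL1R1 peaks.

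The weak IL1R1 peak 30.7 kb upstream (chr2:102111833-102112220), also added after its values were seen, was the only closed member with a cytokine call under both scalings. It ran from -0.12 to 0.98 (median 0.68) log2 CPM in unstimulated, from -1.32 to 0.58 (median -0.02) in DMSO and from -1.04 to 0.94 (median 0.63) in belinostat libraries, all groups overlapping. It closed by -1.01 ± 0.34 in the cytokine contrast (adjusted p = 0.0266, loess -1.25 with adjusted p = 0.0171). The belinostat contrast gave 0.80 ± 0.37 (adjusted p = 0.261). With 1 to 17 counts per library, the cytokine call was lost without unstimulated replicates 2, 4 or 6 or DMSO replicates 2 or 4 (adjusted p 0.0506 to 0.122).

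**Figure D4:**
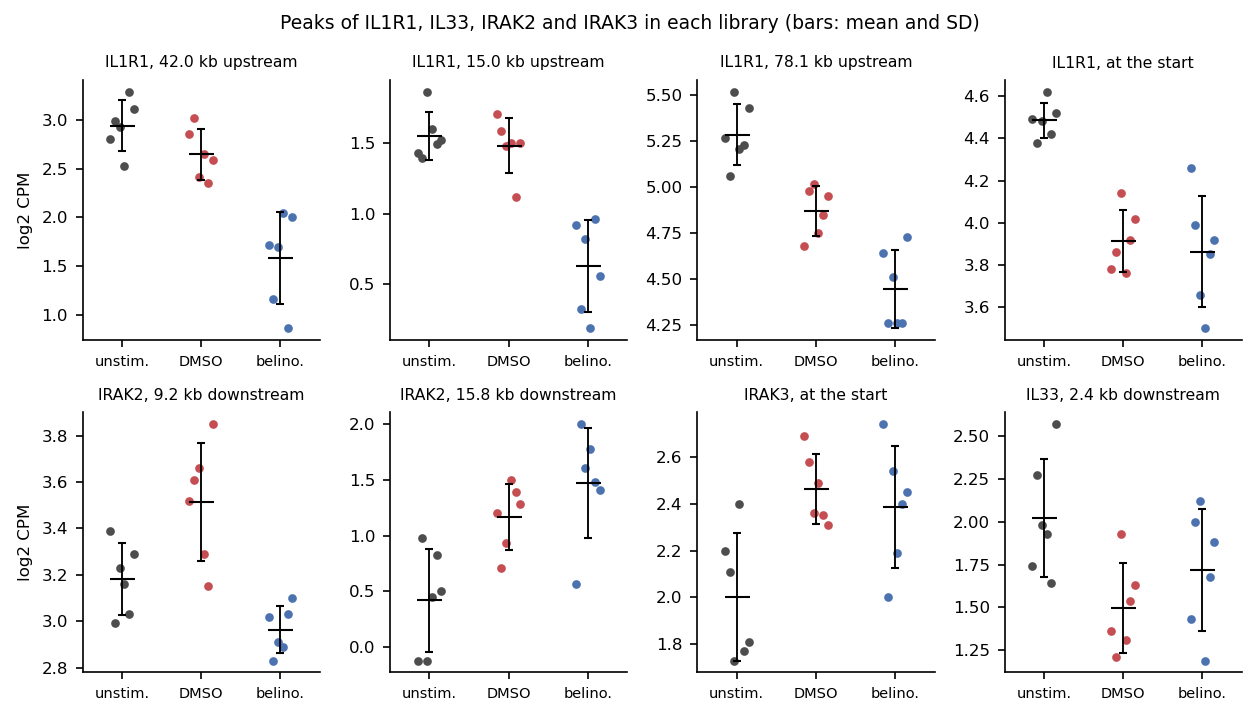
Log2 CPM (vertical axes) in each library for 8 peaks of IL1R1, IRAK2, IRAK3 and IL33, with bars for the mean and SD of each group of 6. At the IL1R1 peaks 42.0 and 15.0 kb upstream and the IRAK2 peak 9.2 kb downstream, all belinostat libraries lie below all DMSO libraries, whereas the IRAK2 peak 15.8 kb downstream is highest on average after belinostat.

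At IL1RAP, the accessory chain, 11 of 13 peaks had a cytokine fold change below 0, and 5 exceeded the median for their abundance. The start peak (chr3:190513460-190514373), the strongest of the family, ran from 5.24 to 5.74 (median 5.53) log2 CPM in unstimulated, from 5.08 to 5.31 (median 5.14) in DMSO and from 4.58 to 5.37 (median 4.97) in belinostat libraries, with overlap. It closed by -0.33 ± 0.11 in the cytokine contrast (adjusted p = 0.0184), beside a median of -0.37 for like peaks, and the loess value was 0.07 (adjusted p = 0.519). The call was also lost without unstimulated replicate 1 (adjusted p = 0.101). The IL1RAP intron peak 19.8 kb downstream closed by -0.49 ± 0.13 (adjusted p = 0.00404, loess -0.16 with adjusted p = 0.361). Its median was 4.00 in unstimulated, 3.56 in DMSO and 3.83 log2 CPM in belinostat libraries, and the groups overlapped.

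IL1RL1, the receptor for IL-33, and IL1R2, the decoy, had no called peak in the cytokine or belinostat contrast. The IL1RL1 peak nearest its start, 1.7 kb downstream and shared with the IL18R1 locus, ran from 0.80 to 1.33 (median 0.87) in unstimulated, from 0.74 to 1.92 (median 1.42) in DMSO and from 0.86 to 1.39 (median 1.12) log2 CPM in belinostat libraries. Its cytokine change was 0.48 ± 0.23 (adjusted p = 0.122). The strongest IL1R2 peaks were in introns 29.0 and 35.6 kb downstream of the start. Their residual changes of -0.60 ± 0.17 (adjusted p = 0.00573) and -0.66 ± 0.18 (adjusted p = 0.00371) passed the test, and the loess values, -0.28 (adjusted p = 0.294) and -0.35 (adjusted p = 0.209), did not. A pair of weaker IL1R2 peaks opened in the residual contrast, the one 3.3 kb upstream by 1.23 ± 0.40 (adjusted p = 0.0117) and the one 9.2 kb downstream by 1.03 ± 0.32 (adjusted p = 0.0104). Like peaks had medians of 0.51 and 0.33, and the loess values were 0.77 and 0.74 (adjusted p 0.205 and 0.129). The first call was lost without belinostat replicate 4. A faint IL1RL1 peak 33.7 kb downstream, with 0 to 4 counts per library, opened there by 1.54 ± 0.60 (adjusted p = 0.0379), beside 1.13 for like peaks and 0.57 with loess offsets (adjusted p = 0.591), and was called in 4 of the 12 fits without a library.

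IRAK2, the kinase that sustains the signal, held 5 of the 8 opened and 2 of the 14 closed member peaks. The intron peak 9.2 kb downstream ran from 2.99 to 3.39 (median 3.19) log2 CPM in unstimulated, from 3.15 to 3.85 (median 3.56) in DMSO and from 2.83 to 3.10 (median 2.96) in belinostat libraries. Every belinostat library lay below every DMSO library, while DMSO and unstimulated libraries overlapped. It opened by 0.35 ± 0.13 in the cytokine contrast (adjusted p = 0.0435), where like peaks had a median of -0.34, and by 0.67 with loess offsets (adjusted p = 4.42e-06). Without a library in turn, the cytokine call held in 3 of 12 fits, with adjusted p from 0.0245 to 0.173 and values from 0.27 to 0.42. It closed by -0.58 ± 0.14 in the belinostat contrast (adjusted p = 0.00582, loess -0.44 with adjusted p = 0.015). That call was lost without DMSO replicate 6 (adjusted p = 0.058) and with TMM over the weaker peaks (adjusted p = 0.0685). The residual contrast gave -0.22 ± 0.14 (adjusted p = 0.237). Of the 111 member peaks it was the only peak called opened in the cytokine contrast and closed in the belinostat contrast, both of which use the same DMSO libraries.

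The IRAK2 intron peak 15.8 kb downstream ran from -0.12 to 0.98 (median 0.47) in unstimulated, from 0.71 to 1.5 (median 1.24) in DMSO and from 0.57 to 2.00 (median 1.54) log2 CPM in belinostat libraries. The lowest stimulated libraries overlapped the highest unstimulated ones. It opened by 0.85 ± 0.27 in the cytokine contrast (adjusted p = 0.0163, loess 0.87 with adjusted p = 0.0433), where like peaks had a median of -0.06. Without unstimulated replicate 1 or DMSO replicate 4 the adjusted p was 0.0556 or 0.0571. The residual contrast gave 1.23 ± 0.26 (adjusted p = 0.000102, loess adjusted p = 0.000405) and the belinostat contrast 0.38 ± 0.23 (adjusted p = 0.41). Counts ranged from 4 to 22 per library.

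The other IRAK2 calls were smaller or rested on fewer reads. The remaining opened peaks, named after their values were seen, lay 19.5, 71.2 and 74.3 kb downstream. They had at most 11 counts in a library and changes of 1.30, 1.09 and 1.28 (adjusted p 0.0256, 0.0437 and 0.0493), beside medians of 0.47, 0.35 and 0.61 for like peaks. They were not called with loess offsets (0.90, 0.77 and 0.79, adjusted p 0.218, 0.264 and 0.347), and were called in 7, 4 and 4 of the 12 fits without a library. The strongest IRAK2 peak, in an intron 27.3 kb downstream (chr3:10191866-10192550), closed by -0.33 ± 0.12 (adjusted p = 0.035), and the start peak by -0.33 ± 0.13 (adjusted p = 0.0497). Peaks of like abundance had medians of -0.37 and -0.34, and the loess values were 0.03 and 0.00 (adjusted p 0.885 and 0.987). These calls held in 6 and 3 of the 12 fits without a library. Of the 20 IRAK2 peaks, 17 lay above the median of like peaks in the cytokine contrast.

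IRAK3, the inhibitory kinase, opened at its start. The peak there (chr12:66188858-66189767) ran from 1.73 to 2.40 (median 1.96) log2 CPM in unstimulated, from 2.31 to 2.69 (median 2.42) in DMSO and from 2.00 to 2.74 (median 2.43) in belinostat libraries. The DMSO libraries overlapped the unstimulated ones only at their edge. The cytokine change was 0.44 ± 0.17 (adjusted p = 0.0481), beside a median of -0.27 for like peaks, and 0.68 with loess offsets (adjusted p = 0.004). Near the threshold, the call held in 2 of 12 fits without a library (adjusted p 0.023 to 0.113). The belinostat contrast gave -0.07 ± 0.17 (adjusted p = 0.851). The strongest IRAK3 peak, in an intron 46.1 kb downstream and named after its values were seen, changed by 0.06 ± 0.14 (adjusted p = 0.797), and with loess offsets it opened by 0.38 (adjusted p = 0.0265). All 6 IRAK3 peaks lay above the median of like peaks in the cytokine contrast.

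In the residual contrast, 15 member peaks opened and 20 closed, or 13.5% and 18.0%, beside 16.8% and 13.7% over all peaks. IL1R1 held 13 of the closed and 1 of the opened peaks, and IRAK2 7 of the opened and 3 of the closed. IL1RN held 2 of the opened and 1 of the closed, and IL1A and IRAK3 held 1 of the opened each. Of the 61 members with an average under 1 log2 CPM, 13 opened, and of the 50 stronger members 2 opened and 20 closed. Over all peaks, 22.1% of the weak ones opened and 44.5% of the strong ones closed. With loess offsets, 10 members opened and 9 closed, beside 3.76% opened and 4.8% closed over all peaks. Of these members, 3 opened and 5 closed peaks kept the call of the first fit.

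Counts were also summed over all peaks of a locus. The median log2 fold change of all loci was -0.26 in the cytokine, -0.08 in the belinostat and -0.34 in the residual contrast. In the cytokine contrast, 2 of the 10 loci were lower and 0 higher, beside 62.5% and 10.9% of 19180 protein-coding loci. At an unadjusted p under 0.05 edgeR gave 2 higher and 2 lower loci, and the share of all loci at that p was not counted. DESeq2, under which the median of all loci was -0.02, called 6 higher and 1 lower, beside 3638 and 2244 of 19180. The IL1R1 locus held 7.52 to 7.76 (median 7.55) log2 CPM in unstimulated, 7.07 to 7.37 (median 7.20) in DMSO and 6.80 to 7.22 (median 7.00) in belinostat libraries, and unstimulated libraries lay above all others. It was lower by -0.38 ± 0.07 (adjusted p = 0.00036), or -0.12 relative to the median of all loci, and by -0.09 with loess offsets (adjusted p = 0.0433). The IL1RAP locus was lower by -0.29 ± 0.09 (adjusted p = 0.00499), which is -0.03 relative to the median, with a loess value of 0.01 (adjusted p = 0.929).

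The other loci were not called in the cytokine contrast, and 8 of the 10 members lay above the median of all loci. With loess offsets, 3 were higher and 1, IL1R1, was lower, beside 13.8% higher and 8.41% lower over all loci. The higher ones were IRAK3 (0.42, adjusted p = 0.00159), IRAK2 (0.29, adjusted p = 0.00015) and IL1RN (0.27, adjusted p = 0.00831). In the unadjusted scale of the first fit these 3 changed by 0.22 ± 0.10, -0.01 ± 0.07 and 0.02 ± 0.08 (adjusted p 0.0563, 0.932 and 0.825), so that the direction at IRAK2 depends on the scaling. In the belinostat contrast, edgeR called 0 loci in either direction, beside 2.04% lower and 0.125% higher over all loci. DESeq2 also called 0, beside 695 lower and 419 higher of 19180. By edgeR, 3 of the members passed an unadjusted p under 0.05, all lower, and the share of all loci was not counted. These were IRAK2 (-0.21 ± 0.07, adjusted p = 0.109), IL1R1 (-0.21 ± 0.08, adjusted p = 0.128) and IL1B (-0.36 ± 0.17, adjusted p = 0.224). Without belinostat replicate 1, IL1R1 (-0.25, adjusted p = 0.0131) and IRAK2 (-0.23, adjusted p = 0.02) were called lower. In the residual contrast, 4 loci were lower and 0 higher, beside 66.8% and 13.0%. At an unadjusted p under 0.05 none was higher, and DESeq2 called 5 higher and 1 lower, beside 5191 and 4198 of 19180 loci. The lower loci were IL1R1 (-0.59 ± 0.08), IL1RAP (-0.31 ± 0.09), IRAK2 (-0.22 ± 0.07) and IL1R2 (-0.21 ± 0.08). Relative to the median of all loci these were -0.25, 0.03, 0.12 and 0.13. With loess offsets IL1R1 stayed lower (-0.17, adjusted p = 0.000376) and IRAK2 was called higher (0.21, adjusted p = 0.00162), as it was by DESeq2 (0.12, adjusted p = 0.0388). These offsets also called IL1B lower (-0.55, adjusted p = 0.0143) and IL1RN (0.26, adjusted p = 0.00932) and IRAK3 (0.32, adjusted p = 0.0075) higher. In the first fit these last 3 changed by -0.17, -0.09 and 0.06 (adjusted p 0.382, 0.317 and 0.578). Over all loci the offsets called 20.2% higher and 18.2% lower. The loess values of IL1RAP and IL1R2 were 0.11 and 0.06 (adjusted p 0.08 and 0.548). The IL1R2 call was also lost without unstimulated replicate 1 or belinostat replicate 2 (adjusted p 0.101 and 0.0647).

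Of 29 other genes of the pathway, 4 were higher and 13 lower in the cytokine contrast, and 5 higher and 16 lower in the residual contrast. Over all loci 10.9% were higher and 62.5% lower in the cytokine and 13.0% and 66.8% in the residual contrast. With loess offsets 4 of the 29 were higher and 4 lower in the cytokine contrast, and 6 and 5 in the residual contrast. Over all loci these offsets called 13.8% higher and 8.41% lower in the cytokine and 20.2% and 18.2% in the residual contrast. In the belinostat contrast edgeR called 0 in either direction, beside 2.04% lower and 0.125% higher over all loci. Before adjustment 6 were lower and 0 higher, and the share of all loci was not counted. The median of the 29 was -0.03, and that of all loci -0.08. The 4 higher ones in the cytokine contrast came from the list of family ligands, which includes the receptor antagonist gene IL36RN. They were IL36B (0.65 ± 0.19, adjusted p = 0.00312), IL36RN (0.64 ± 0.19, adjusted p = 0.0045), IL36G (0.97 ± 0.32, adjusted p = 0.00785) and IL1F10 (0.37 ± 0.17, adjusted p = 0.0477), and the loci of IL36B, IL36RN and IL1F10 share peaks. With loess offsets IL36B was higher (0.49, adjusted p = 0.0405) and the other 3 were not called. Of the 12 adaptors, kinases and ubiquitin enzymes, 9 were lower in the cytokine contrast, beside the 62.5% of all loci, among them the shared adaptor MYD88 (-0.34 ± 0.08, adjusted p = 0.000845), TRAF6 (-0.42 ± 0.08, adjusted p = 0.000287) and the kinase gene MAP3K7 (-0.49 ± 0.10, adjusted p = 0.000372). With loess offsets 2 of the 12 were lower, TRAF6 (-0.18, adjusted p = 0.0259) and MAP3K7 (-0.29, adjusted p = 0.00899), and TAB2 was higher (0.22, adjusted p = 0.00179). The other lower genes were IL18 (-0.28 ± 0.10, adjusted p = 0.0159), IL1RAPL1 (-0.43 ± 0.07, adjusted p = 0.000172) and, among the processing proteins, CASP1 (-0.31 ± 0.12, adjusted p = 0.0213) and GSDMD (-0.31 ± 0.08, adjusted p = 0.00214). IL18R1, which contains all IL1RL1 peaks, changed by 0.02 ± 0.08 (adjusted p = 0.814) and was higher with loess offsets (0.24, adjusted p = 0.012), as was the receptor gene SIGIRR (0.41, adjusted p = 0.0246, and 0.21 ± 0.11 with adjusted p = 0.0795 in the first fit). With these offsets IL1RAPL1 (-0.13, adjusted p = 0.0408) and CASP1 (-0.34, adjusted p = 0.0405) stayed lower, and GSDMD was not called (-0.03, adjusted p = 0.759).

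The profile of the IL1R1 locus over the 18 libraries was shared widely. Among 16451 protein-coding loci with a mean of at least 3 log2 CPM and no peak in common with it, the most alike were IFT27 (Pearson r = 0.993), RNF5 (0.991), AGPAT1 (0.99), CIC (0.989) and ARHGEF3 (0.988), and the median r over all of them was 0.86. The profile of IL33 had a median r of 0.07, and the most alike were PARVG (0.713), CYP7B1 (0.613), SLC1A3 (0.61), CRACR2A (0.603) and HAPLN4 (0.566). The points share the libraries and their depth, and the values are descriptions.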

How the data were processed

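Bulk ATAC-seq of 18 Ccd18-Co libraries was analysed, grouped by sample title. Per the study's methods, the authors trimmed and aligned reads to hg38 with the ENCODE pipeline, called peaks with MACS2, merged them over conditions and counted fragments in them with csaw. The deposited values are raw counts per peak and library, without normalization. The study's text gives a higher belinostat concentration and in places a lower IL-1β dose than the labels, whose values are used. Peak names count starts from 0, so 1 was added. Loci followed GENCODE release 44.

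For all 334857 peaks, edgeR 4.0.16 (R 4.3.3) compared the groups (glmQLFit and glmQLFTest, trended dispersion, TMM factors, 1 mean per group). The Benjamini-Hochberg method adjusted p-values, over the whole table of peaks or over 19180 loci, and an adjusted p under 0.05 was a call. No peak failed the filter (average log2 CPM over -3). Log2 CPM used a prior count of 2. SE was the fold change over the root of the F statistic. The tests were tried on simulated data first. Members and lists were chosen with earlier results of these data known. Peaks named were each gene's start peak, the smallest p per contrast and called peaks (the 3 with the smallest p where over 5 were called). Some of those called in the residual contrast alone, as at IL1RN and IRAK3, are counted but not described singly. Alternatives were library totals, TMM over 10 kb bins or weaker peaks, loess offsets (limma 3.58.1), a stricter filter, 3 kb upstream, both groups alone, a replicate block, DESeq2 1.42.0 and leaving out each library. Reads outside peaks were not analysed here.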

Additional observations from a re-analysis of the deposited data

Results flagged for a closer look

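In 16 of 153 sets of 6 libraries (each named peak or locus in a group), the highest or lowest library stood apart from the others by more than Dixon's critical value for 6 values, and chance gives about 1 in 20.

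Among whole loci, IL1B held 2.24 log2 CPM in belinostat replicate 6, where the others held 1.78 to 1.93. IL1R2 held 4.74 in unstimulated replicate 1 (others 4.44 to 4.52), and IRAK3 held 3.74 in unstimulated replicate 5 (others 4.20 to 4.47).

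Among peaks with an average above 1 log2 CPM, the IRAK2 start peak was highest in belinostat replicate 1 (3.78, others 3.08 to 3.31) and lowest in DMSO replicate 1 (2.92, others 3.40 to 3.64). The IL1RAP peak 19.8 kb downstream was lowest in belinostat replicate 4 (2.98, others 3.67 to 3.98). The IRAK3 peak 46.1 kb downstream was highest in belinostat replicate 1 (3.65, others 3.13 to 3.29).

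The other peaks were faint. They were an IL1R2 peak (-1.09 in belinostat replicate 3), 2 IRAK3 values at the same peak (-1.04 in belinostat replicate 1 and -0.85 in DMSO replicate 2), an IRAK2 peak 74.3 kb downstream (-0.78 in DMSO replicate 3), the IL1A start peak (-0.46 in DMSO replicate 3), another IL1A peak (-1.81 in belinostat replicate 1) and an IL33 peak (-0.54 in DMSO replicate 6). At IL1RN, unstimulated replicate 5 was highest at a peak (-0.78, others -1.38 to -1.16) and lowest at another (0.04, others 0.64 to 0.97).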

How the results depend on the processing

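The calls depended on the scaling, which moved the median cytokine change of all loci from -0.26 to -0.04 with library totals, -0.71 with TMM over the weaker peaks and -0.02 with loess offsets or DESeq2. In the cytokine contrast 8 peaks opened and 14 closed; with library totals these were 16 and 6, with TMM over weaker peaks 0 and 34, with loess offsets 5 and 1 and with DESeq2 2 and 7, and with a filter at an average log2 CPM of 0, 4 opened. Over all 334857 peaks, library totals opened 54265 and closed 10894, and TMM over weaker peaks 7513 and 84230. Loess offsets opened 6612 and closed 6217, DESeq2 15215 and 18587, and the filter at 0 opened 17406 of 200098. Leaving out a library gave 1 to 9 opened and 7 to 15 closed members. In the belinostat contrast library totals gave 1 and loess offsets 2 opened peaks (0 to 1 without a library), and TMM over weaker peaks 2 closed ones (2 to 5 without a library). Over all peaks, library totals opened 3673, loess offsets opened 3168 and TMM over weaker peaks closed 3390. In the residual contrast TMM over weaker peaks gave 4 opened and 48 closed, the filter at 0 gave 5 opened, library totals 11 closed and loess offsets 9 closed. Over all peaks, TMM over weaker peaks opened 8850 and closed 103354, and the filter at 0 opened 25293 of 200098. Library totals closed 21124 of all peaks and loess offsets 16084.

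Of the 10 loci, the cytokine contrast had 6 higher with library totals or DESeq2, 2 with TMM over 10 kb bins, 3 with loess offsets, 1 with both groups alone and 0 to 2 without a library, and 6 lower with TMM over weaker peaks and 1 with library totals, loess offsets or DESeq2. Over all 19180 loci, 3621 were higher with library totals, 3638 with DESeq2, 2395 with 10 kb bins, 2654 with loess offsets and 2093 with both groups alone. Lower ones were 15814 with TMM over weaker peaks, 3712 with library totals, 1613 with loess offsets and 2244 with DESeq2. The residual contrast had 4, 1, 3 and 5 higher with library totals, 10 kb bins, loess offsets and DESeq2, and 1, 8, 2 and 1 lower with library totals, TMM over weaker peaks, loess offsets and DESeq2. Over all loci in the residual contrast, 4957, 2911, 3880 and 5191 were higher and 5650, 16314, 3499 and 4198 lower with the same settings in the same order. Leaving out a library gave 0 to 2 lower loci in the belinostat contrast.

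The direction turned with loess offsets for the IL1RAP start peak (0.07 cytokine, 0.05 residual), the IRAK2 peak 27.3 kb downstream (0.03 cytokine), the IRAK2 start peak (0.02 residual) and the IRAK3 peak 46.1 kb downstream (0.35 residual), and with TMM over weaker peaks for the IRAK2 peak 9.2 kb downstream (-0.09 cytokine). Cytokine values of loci turned at IL33 (-0.34) and IL1RN (-0.42) with TMM over weaker peaks, at IL1RAP with loess offsets (0.01), and at IRAK2 with library totals, loess offsets and DESeq2 (0.21, 0.29 and 0.24). Residual values turned with the same 3 settings at IL1RN (0.22, 0.26 and 0.25), IL1R2 (0.10, 0.06 and 0.13) and IRAK2 (0.09, 0.21 and 0.12), at IL1RAP with loess offsets and DESeq2 (0.11 and 0.02), and at IRAK3 with TMM over weaker peaks (-0.51). The cause was not tested.

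Replicate numbers did not pair the libraries: deviations of same-numbered libraries correlated at -0.133 to 0.106, and 4 of 18 matched their own number best. With the replicate number as a block, 5 member peaks closed in the belinostat contrast, 1 locus was lower there, and 1 was higher in the cytokine contrast. With that block, 6230 of all peaks closed and 1018 of all loci were lower in the belinostat contrast, and 2154 loci were higher in the cytokine contrast.

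Of 47 called single results, 22 lost the call in at least 1 of the fits without a library. With the settings other than leaving out a library, 36 of the 47 lost the call in at least 1 fit. In 9 of the 47, which may be among those 36, the direction turned in at least 1 of these fits. Low counts at weak peaks limit what could be detected there, and the group with belinostat had the fewest counts.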
